A study of Danio rerio with 228 samples.

Results

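The genes alpi.2 and aqp3a were followed across zebrafish embryos exposed to 9 per- and polyfluoroalkyl substances (PFAS). They were chosen by name, as the probes whose symbol is alpi.2 or aqp3a, and are 2 of the 3112 genes on the panel, with 1 probe each. Exposure began at 4 h and ended at 120 h after fertilisation, in water with 0.1% DMSO, and each library came from 10 whole embryos pooled. The chemicals were the perfluorinated carboxylic acids PFBA, PFHxA, PFOA, PFNA and PFDA and the perfluorinated sulfonic acids PFBS, PFHxS, PFOS and PFDS, both in order of chain length, each at 5 concentrations with 4 or 5 pools per concentration. In all, the exposed pools of 45 groups were compared with 26 pools that received DMSO alone. PFOS, PFOA and PFDS were set against the 4 pools of control_mixed, from fish of mixed Ottawa and Montreal breeding, and so was PFDA, for which this assignment is an assumption. PFBA, PFHxA, PFBS and PFHxS were set against the 6 pools of control_ottawa, from Ottawa fish. PFNA was set against the 16 pools of control_pfna, also from Ottawa fish, which share its plate and processing batch.

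Alkaline phosphatases of the intestinal type sit on the brush border of enterocytes and remove phosphate from nutrients and from bacterial lipopolysaccharide. In zebrafish they are known from work on how the gut tolerates its bacteria. Aquaporin 3 is a channel for water and glycerol that in mammals lies in the membranes of skin, kidney and gut epithelia. The pools were whole embryos, so expression in the intestine was not measured apart from other tissues, and fewer cells of a type cannot be told apart from less RNA per cell.

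RNA was measured by TempO-Seq, in which detector probes are joined on their target RNA and counted after sequencing. The 214 pools held 2254364 to 4466565 counts each. Levels are CPM, probe counts per library size after TMM scaling. Over the pools alpi.2 had a median of 68.1 CPM and a range of 30.2 to 161.4 CPM, from 92 to 610 counts. aqp3a had a median of 442 CPM and a range of 208 to 771 CPM, from 668 to 2979 counts. The spread between pools of 1 group was 0.26 (SD, log2) for alpi.2 and 0.22 for aqp3a, against a counting error of 0.097 and 0.038 at the median count. The group a pool belonged to accounted for 81.2% of the variance of alpi.2 and 38.9% of that of aqp3a, beside a median of 40.4% over all probes.

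alpi.2 rose at the 4 lower concentrations of PFOS and of PFOA and at 60 and 200 µM PFHxA, and fell at the 4 higher concentrations of PFNA. These were 14 of 45 contrasts with DMSO, 10 higher and 4 lower, at an adjusted p under 0.05 (edgeR's quasi-likelihood test, Benjamini-Hochberg adjustment over all probes tested). The change was between -0.97 and 1.12 on the log2 scale. aqp3a passed the same test in 3 of 45 contrasts, each at the highest concentration of its chemical. It rose at 600 µM PFHxA and fell at 450 µM PFNA and at 6 µM PFDS.

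**Figure D1:**
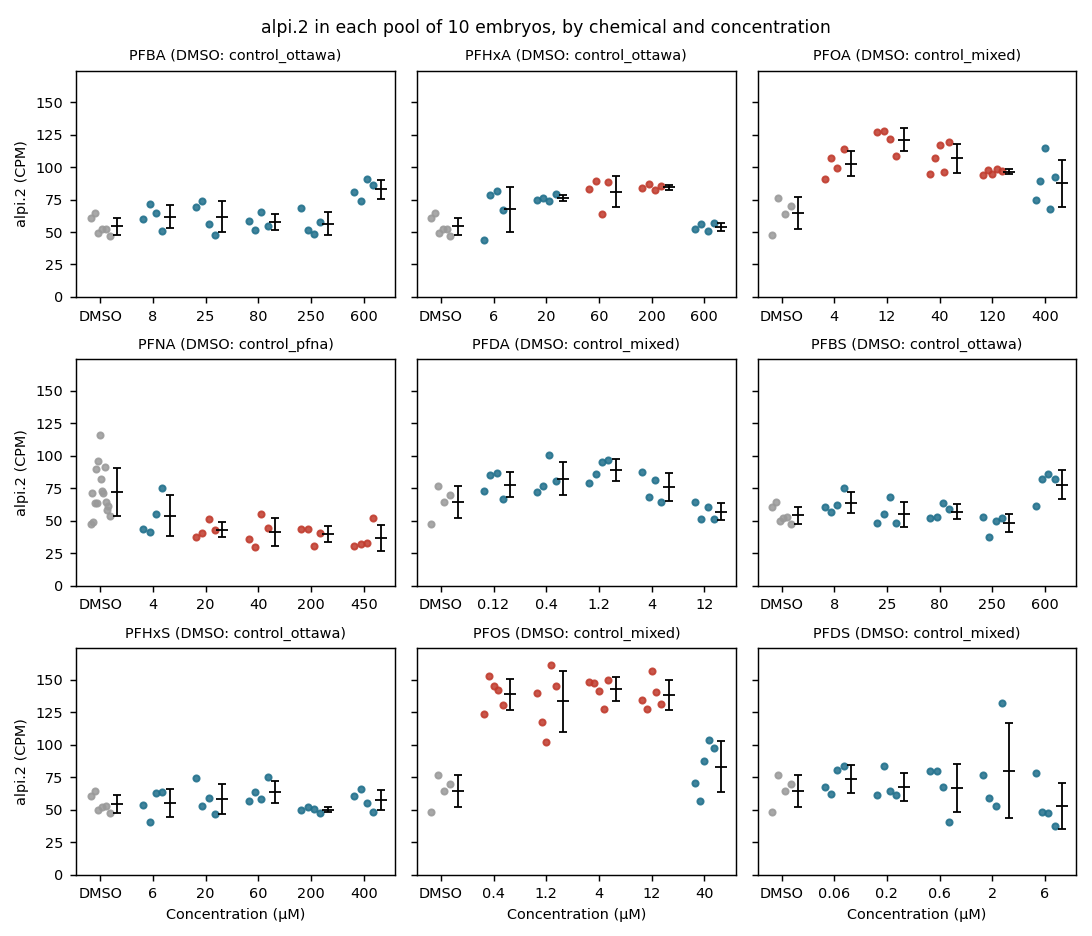
Level of alpi.2 (CPM) in each pool, with 1 panel per chemical, its DMSO pools in grey and then its 5 concentrations (µM) in rising order. Points are pools, the bar beside them is the mean with its SD, and red points are concentrations past an adjusted p of 0.05. All PFOS pools at 0.4 to 12 µM lie at or above 102.4 CPM, and the DMSO pools of the same panel lie at or below 76.5 CPM.

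The highest levels of alpi.2 were found with PFOS. At 0.4 µM PFOS the 5 pools had 123.4, 130.6, 142.4, 145.02 and 153.1 CPM, against 47.9, 64.1, 69.8 and 76.5 CPM in the control_mixed pools. At 1.2 µM they had 102.4, 117.5, 139.9, 145.2 and 161.4 CPM, at 4 µM they had 127.3, 141.1, 147.3, 148.5 and 149.6 CPM, and at 12 µM they had 127.3, 131.7, 134.6, 140.6 and 157.1 CPM. Every pool at these 4 concentrations was above every DMSO pool. The mean was 142.8 ± 9.2 CPM at 4 µM (SD, n = 5), against 64.6 ± 12.2 CPM in DMSO pools (n = 4), the highest mean of any group. The log2 changes were 1.095, 1.04, 1.12 and 1.09 from 0.4 to 12 µM, with standard errors of 0.16 and adjusted p of 0.000156, 0.000326, 5.87e-05 and 8.68e-05 (edgeR). In the same contrasts 1.77, 1.92, 4.35 and 6.23% of all probes passed, and by p alpi.2 ranked 1 or 2 among them.

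At 40 µM PFOS the level of alpi.2 was lower than at the other concentrations. The 5 pools had 56.3, 70.3, 87.6, 97.2 and 103.95 CPM, against the same 47.9 to 76.5 CPM in DMSO pools, so the groups overlapped. The change from DMSO was 0.37 ± 0.16 (SE) with an adjusted p of 0.0787, at a concentration where 26.9% of probes passed. Set against the lower concentrations themselves, 40 µM was lower by -0.72 (0.4 µM), -0.67 (1.2 µM), -0.75 (4 µM) and -0.72 (12 µM) on the log2 scale, and each difference passed (adjusted p 0.000393 to 0.00112, edgeR), as did 22.1, 22, 16.2 and 8.4% of probes. The slope over the 25 exposed PFOS pools was -0.26 ± 0.085 (SE) per 10-fold concentration, with an adjusted p of 0.0233 (23.3% of probes), and with adjusted p of 0.0669 without replicate 1 and 0.0595 without replicate 2 at 40 µM. It is the 1 slope of alpi.2, among 9 chemicals, that passed.

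With PFOA the rise was smaller and the highest mean was at 12 µM. The 4 pools at 4 µM PFOA had 90.9, 99.3, 106.7 and 113.7 CPM, against 47.9 to 76.5 CPM in the control_mixed pools. The 4 pools at 12 µM had 108.6, 121.8, 126.9 and 127.6 CPM, the 5 pools at 40 µM had 94.5, 96.3, 107.4, 116.7 and 119.1 CPM, and the 5 pools at 120 µM had 94, 94.9, 97.2, 97.7 and 98.8 CPM. No pool at these concentrations reached down to the DMSO pools. The log2 changes were 0.67, 0.91, 0.72 and 0.57, with standard errors of 0.14 and adjusted p of 0.0107, 0.000504, 0.00263 and 0.0144 (edgeR), where 1.61, 1.1, 1.72 and 2.31% of probes passed. At 400 µM the pools had 67.9, 74.5, 89, 92.2 and 114.4 CPM, overlapping the DMSO pools, and the change of 0.43 had an adjusted p of 0.0954 (2.53% of probes). Without replicate 1 of control_mixed, the lowest DMSO pool, the change was 0.46 at 120 µM and 0.56 at 4 µM, and neither passed (adjusted p 0.106 and 0.0774). RNA integrity at 4 µM PFOA was 9.2 to 9.4, against 9.5 to 10 in control_mixed pools, and its part in the level of alpi.2 was not tested.

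The DMSO pools of these contrasts number 4, and the pools came from several RNA extraction batches. Of the batches given in the labels, batch 2 and batch 10 hold PFOS, PFOA and control_mixed pools. PFOS pools at 0.4 to 12 µM had 117.5 to 153.1 CPM in batch 2, against 76.5 CPM in its DMSO pool, and 123.4 to 148.5 CPM in batch 10, against 47.9 CPM in its DMSO pool. With extraction batch as a term, all 4 PFOS calls held (adjusted p 0.00362 to 0.0108), and 2 of 4 PFOA calls did (0.0064 to 0.0723). Plate 1 holds 1 of the control_mixed pools, replicate 4, which is then assumed to vary like the exposed pools, and plate 2 holds 3. On plate 1 alone the changes were 0.86 to 1.04 for PFOS and 0.45 to 0.71 for PFOA. On plate 2 alone they were 1.00 to 1.24 and 0.62 to 1.01, and 1 of 4 PFOS calls and 2 of 4 PFOA calls passed. With a plate term all 4 PFOS calls held (adjusted p 7.49e-05 to 0.000486, edgeR), and so did all 4 PFOA calls (0.000758 to 0.0166).

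PFHxA gave a rise of alpi.2 at middle concentrations. At 60 µM PFHxA the pools had 63.5, 83, 88.8 and 89.4 CPM, against 47.3, 49.5, 52, 52.7, 60.5 and 64.3 CPM in the control_ottawa pools, with 1 exposed pool inside the DMSO range. At 200 µM the pools had 82.2, 84, 85.5 and 86.6 CPM, all above it. The log2 changes were 0.60 and 0.66 ± 0.13 (SE), with adjusted p of 0.0225 and 0.0112 (edgeR), and 1.2 and 1.02% of probes passed. At 600 µM the pools had 50.8, 52, 56 and 56.8 CPM, inside the DMSO range, and the change was -0.01 with a 95% interval of -0.29 to 0.28, while 20.3% of probes passed. Against 60 and 200 µM, 600 µM was lower by -0.60 and -0.67 (adjusted p 0.0121 and 0.00572, 9.4 and 8.67% of probes).

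The PFHxA calls depend on the pools used. With a plate term both held (changes of 0.60 to 0.67, adjusted p 0.0113 to 0.023, edgeR). The call at 60 µM was lost without replicate 1, 2 or 4 of that group (adjusted p 0.0537 to 0.0799). In fits of 1 plate, which hold fewer pools, neither concentration passed. The changes were 0.74 on plate 1 (adjusted p 0.0841 to 0.279) and 0.38 to 0.54 on plate 2 (0.504 to 0.542). With extraction batch as a term the changes were 0.78 to 0.88 and neither passed (adjusted p 0.608 to 0.623). Only batch 8 holds both PFHxA and control_ottawa pools, with 1 DMSO pool, so the fits with this term rest on that pool. The 2 DMSO pools that the labels set aside as outliers had 107.2 and 76.13 CPM of alpi.2, above all 6 control_ottawa pools. With them added to control_ottawa the changes were 0.35 and 0.41 and neither passed (adjusted p 0.252 to 0.298).

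PFNA was the chemical with lower alpi.2. The 4 pools at 450 µM PFNA had 30.3, 31.9, 32.5 and 52.1 CPM, against 47.9 (lowest), 67.7 (median) and 115.9 CPM (highest) in the 16 control_pfna pools. The 4 pools at 200 µM had 30.8, 40.4, 43.4 and 43.9 CPM, all below every DMSO pool. At 20, 40 and 450 µM 3 of 4 pools lay below the DMSO range, and at 4 µM 2 of 4 did. The log2 changes at 20, 40, 200 and 450 µM were -0.74, -0.80, -0.88 and -0.97, with standard errors of 0.19 to 0.20 and adjusted p of 0.0427, 0.0126, 0.00257 and 0.000185 (edgeR), where 1.23, 4.21, 9.69 and 33.1% of probes passed. At 4 µM the change was -0.43 with an adjusted p of 0.369 (0.246% of probes). Set against the lower PFNA concentrations themselves, 450 µM passed against none (adjusted p 0.122 to 0.905, edgeR, 5.2 to 15.5% of probes). The slope over the PFNA pools was -0.24 per 10-fold with an adjusted p of 0.0587 (edgeR, 18.1% of probes). The call at 20 µM was lost with total counts, without the low-count filter (adjusted p 0.0555 and 0.0529), without replicate 1, 2 or 4 of that group (0.11 to 0.239) and without replicate 2, 5, 7, 8, 11 or 12 of control_pfna (0.0525 to 0.0609), and that at 40 µM without replicate 1 or 2 of its group (0.0873 and 0.116).

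The control_pfna pools themselves differed by extraction batch. The sample names call the pools of batches 11, 12 and 13 EM, ENV and EP controls, and those of batch 14 PFNA controls. These sets coincide with the extraction batches, so set and batch cannot be told apart. alpi.2 averaged 58.1 ± 11.7, 91.4 ± 21.4, 79.4 ± 9.3 and 59.4 ± 4.6 CPM in batches 11, 12, 13 and 14 (SD, n = 4 each), and a test among batches passed (adjusted p = 0.0443, edgeR, 7.76% of probes). All PFNA pools were in batch 14. Against the 4 DMSO pools of batch 14, at 53.5 to 64.2 CPM, the changes of alpi.2 were -0.46 to -0.69 and 1 of 4 passed, that at 450 µM (adjusted p 0.0125). RNA yield at 450 µM was 176.8 ± 38.2 ng/µl, against 250.1 ± 51.1 ng/µl in the DMSO pools, and RNA integrity was 9.38 ± 0.21 against 9.69 ± 0.17 (SD, n = 4 and n = 16, exact permutation p = 0.0107 and 0.0128, adjusted over 9 chemicals 0.0966 and 0.115). Their part in the lower level was not tested.

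**Figure D2:**
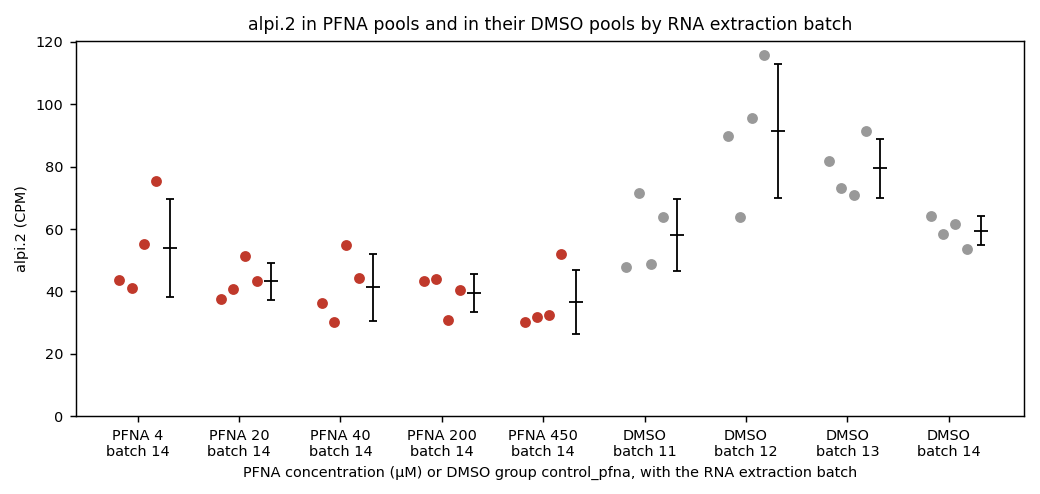
Level of alpi.2 (CPM) in PFNA pools by concentration (µM, left), all of RNA extraction batch 14, and in the 16 DMSO pools of control_pfna by extraction batch (right). Points are pools. DMSO pools of batches 12 and 13 averaged 91.4 and 79.4 CPM of alpi.2, and those of batches 11 and 14 averaged 58.1 and 59.4 CPM.

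PFBA, PFBS, PFHxS, PFDA and PFDS passed for alpi.2 at none of their concentrations. Over the 5 PFBA concentrations 0 to 0.182% of all probes passed, and over all 45 contrasts 0 to 33.1%. At 600 µM PFBA the pools had 74, 80.7, 85.9 and 90.8 CPM, against 47.3 to 64.3 CPM in control_ottawa pools, and did not overlap them, but the change of 0.60 ± 0.14 (SE) had an adjusted p of 0.0641 where 0.146% of probes passed. At 600 µM PFBS the pools had 61.1, 81.9, 82.3 and 85.7 CPM, and the change of 0.53 had an adjusted p of 0.0764 (0.875% of probes). DESeq2 called both (adjusted p 0.00824 and 0.0312). Within PFBS, 600 µM was above 250 µM by 0.71 (adjusted p 0.0341, 0.547% of probes). The changes were -0.19 to 0.48 over the PFDA concentrations, -0.12 to 0.21 over those of PFHxS and -0.28 to 0.31 over those of PFDS, with 95% intervals within -0.50 to 0.79, -0.41 to 0.51 and -0.81 to 0.83. The share of all probes that passed was 0.0364, 0.0364, 0.109, 0.292 and 0.583% over the PFDA concentrations, 0.0365% at the 3 lower PFBS concentrations and 0.328% at 250 µM, 0.731 to 1.06% at the 3 lower PFHxS concentrations, 7.97% at 200 µM and 21% at 400 µM, and 0 to 0.0369% over PFDS below 6 µM. The groups did not overlap at 20 µM PFHxA, with 73.9 to 79.4 CPM and a change of 0.49 (adjusted p 0.115, 0.546% of probes), or at 1.2 µM PFDA, with 78.9 to 96.6 CPM and a change of 0.48 (adjusted p 0.343, 0.109% of probes).

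**Figure D3:**
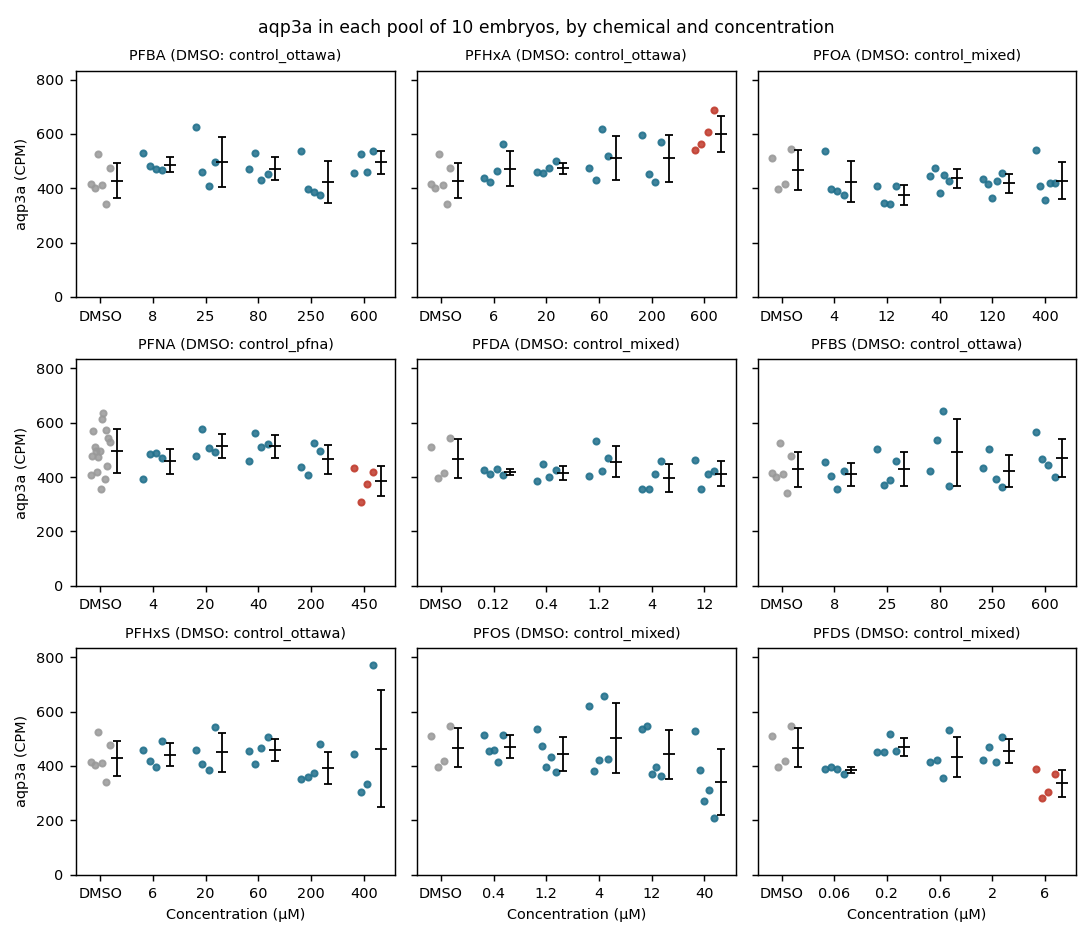
Level of aqp3a (CPM) in each pool, with 1 panel per chemical, its DMSO pools in grey and then its 5 concentrations (µM) in rising order. Points are pools, the bar beside them is the mean with its SD, and red points are concentrations past an adjusted p of 0.05. Those are 600 µM PFHxA, at 543 to 689 CPM, 450 µM PFNA, at 309 to 433 CPM, and 6 µM PFDS, at 282 to 388 CPM.

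aqp3a varied less between groups. Its highest mean was 600.1 ± 65 CPM at 600 µM PFHxA and its lowest 335.5 ± 51 CPM at 6 µM PFDS (SD, n = 4 each), 1.79-fold apart, while the highest and lowest means of alpi.2, at 4 µM PFOS and 450 µM PFNA, were 3.89-fold apart. Among the 48 groups in order of their means, none of the 47 neighbours failed to overlap, for either gene.

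The rise of aqp3a was in PFHxA. At 600 µM the pools had 543, 563, 605 and 689 CPM, against 340 to 525 CPM in control_ottawa pools, with no overlap, a change of 0.49 ± 0.13 (SE) and an adjusted p of 0.00767 (edgeR), where 20.3% of probes passed. At 6, 20, 60 and 200 µM the changes were 0.15, 0.15, 0.28 and 0.28 and none passed (adjusted p 0.325 to 0.713). The slope over the PFHxA pools was 0.16 per 10-fold with an adjusted p of 0.256, and 600 µM passed against none of the lower concentrations. The change at 600 µM was 0.45 on plate 1 alone (adjusted p 0.161), 0.68 on plate 2 alone (0.0249), and 0.34 with extraction batch as a term (0.489). The fit with this term rests on 1 DMSO pool, the only control_ottawa pool in a batch that holds PFHxA pools.

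Both falls of aqp3a were at the highest concentration. At 6 µM PFDS the pools had 282, 302, 369.7 and 388 CPM, against 396, 417, 511 and 545 CPM in control_mixed pools, with no overlap, a change of -0.47 ± 0.13 (SE) and an adjusted p of 0.0217 (edgeR, 277 of 2709 probes). It was also lower than at 0.2 and 2 µM PFDS, by -0.49 and -0.44 (adjusted p 0.0167 and 0.0483, 11.2 and 7.05% of probes). The differences from 0.06 and 0.6 µM, of -0.21 and -0.36, did not pass (adjusted p 0.41 and 0.105, edgeR, 11.1 and 8.75% of probes). The slope over the PFDS pools was -0.089 per 10-fold with an adjusted p of 0.571 (edgeR, 8.26% of probes). The fall from DMSO lost its call without replicate 2 or 3 at 6 µM or replicate 1 or 4 of control_mixed (adjusted p 0.0654 to 0.109), and with extraction batch as a term (-0.32, adjusted p 0.217). At 0.06 µM PFDS the groups did not overlap either, but the change of -0.27 had an adjusted p of 0.98, and 0% of probes passed.

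At 450 µM PFNA the pools had 309, 375, 418 and 433 CPM, against 358 to 637 CPM in the 16 control_pfna pools. The change of -0.38 ± 0.12 (SE) had an adjusted p of 0.0143 (edgeR), where 33.1% of probes passed, and 1 of 4 exposed pools lay below the DMSO range. Between the extraction batches of the DMSO pools aqp3a did not pass the test that alpi.2 did (adjusted p 0.924, batch means 471 to 521 CPM). Against the DMSO pools of batch 14 alone the change was -0.45 (adjusted p 0.00493). Without replicate 2 or replicate 3 at 450 µM the change was -0.27 or -0.35, with an adjusted p of 0.122 or 0.0551.

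At 40 µM PFOS aqp3a differed between pools, with 208, 271, 311, 384 and 529 CPM, against 396 to 545 CPM in control_mixed pools. There 4 of 5 pools lay below the DMSO range, and the change of -0.45 ± 0.20 (SE) had an adjusted p of 0.0986. Without replicate 1, the pool at 529 CPM, it was -0.66 with an adjusted p of 0.01. That pool is of extraction batch 10, as is the control_mixed pool at 511 CPM. The batch 10 pools at 0.4, 1.2, 4 and 12 µM PFOS had 512, 537, 622 and 535 CPM. The pools of other batches at these concentrations had 361 to 659 CPM. At 40 µM each pool is from another batch, so pool and batch cannot be told apart. At 400 µM PFHxS 1 pool had 771 CPM, and the change of 0.16 was -0.23 without that pool. No joint test over the 5 concentrations passed for aqp3a (adjusted p 0.0973 to 0.999), and by DESeq2 1 did, that of PFDS. For alpi.2 the joint tests of PFHxA, PFOA, PFNA and PFOS passed (adjusted p 0.00244, 0.00333, 4.5e-05 and 2.66e-06), beside 9.83, 2.38, 24.4 and 22.9% of probes. Those of PFBA, PFBS, PFHxS, PFDA and PFDS did not pass for it (adjusted p 0.296, 0.0954, 0.586, 0.211 and 0.696, with 0.182, 1.46, 19.2, 0.51 and 7.24% of probes).

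**Figure D4:**
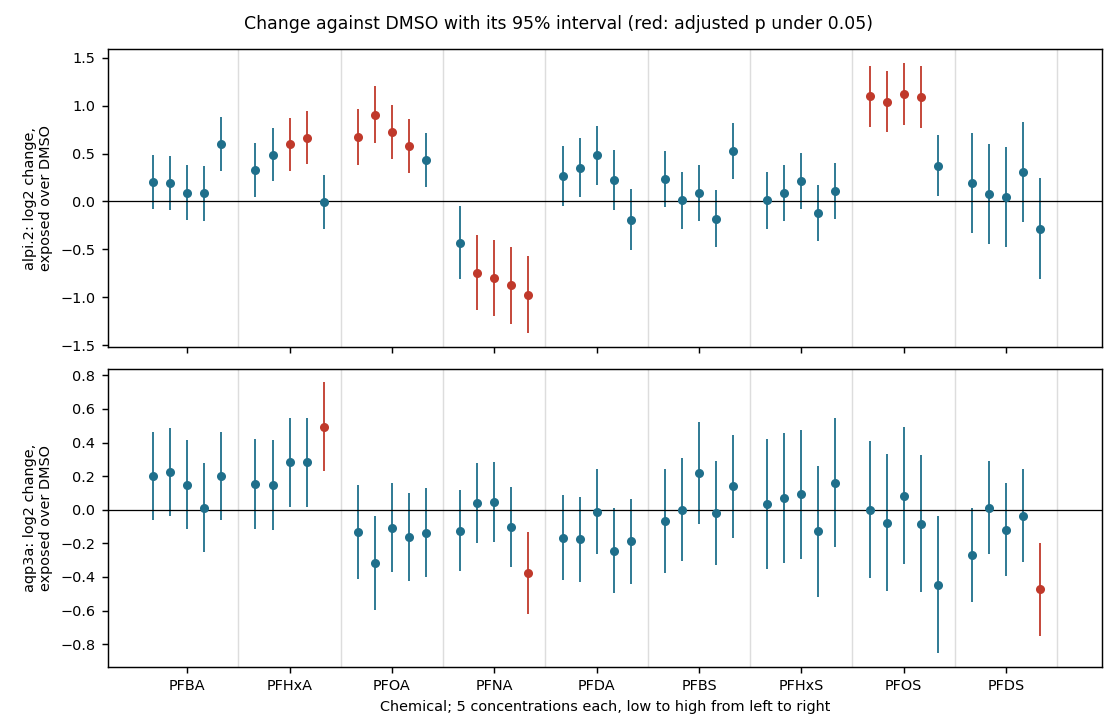
Change from DMSO (log2) of alpi.2 and aqp3a at all 45 concentrations of the 9 chemicals, with the 95% interval of the edgeR fit. Red marks an adjusted p under 0.05, which 14 changes of alpi.2 and 3 of aqp3a passed.

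Where 2 chemicals shared a concentration they were compared, in 32 pairs, 20 directly and 12, between chemicals with different DMSO groups, as the difference of their changes from DMSO. For alpi.2, 16 pairs passed both over all probes and when p was adjusted over the 32 pairs, and for aqp3a 1 did. Over the 32 pairs the share of all probes that passed was 0 to 35.6%. Pairs with PFNA compare plates and DMSO groups as well as chemicals, which cannot be told apart beyond what the DMSO pools take out. PFNA pairs with PFOA, PFOS or PFDA also compare fish origins. The PFNA changes used all 16 control_pfna pools, whose alpi.2 level differed by extraction batch. Against DMSO pools of the same extraction batch, its 4 called changes of alpi.2 were -0.46 to -0.69 rather than -0.74 to -0.97, and 1 passed. The part of extraction batch in the PFNA pairs was not tested.

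Among the carboxylic acids, PFOA and PFNA, which differ by a single carbon, differed in their changes of alpi.2 from DMSO. The difference of their changes was 1.103 ± 0.26 at 4 µM and 1.53 ± 0.26 at 40 µM (SE, adjusted p 0.0126 and 7.09e-05, edgeR, 3.09 and 2.68% of probes). At 4 µM the change of PFNA itself had not passed. At 40 µM it did not pass against DMSO pools of its own extraction batch (-0.52, adjusted p 0.17, edgeR). PFOA and the longer PFDA share DMSO pools and were compared directly. At 12 µM alpi.2 averaged 121.2 ± 8.8 CPM with PFOA and 57 ± 6.6 CPM with PFDA (SD, n = 4 each), a difference of 1.099 ± 0.14 (SE, adjusted p 1.76e-06, 0.357% of probes). At 4 µM the difference was 0.45, with a 95% interval of 0.17 to 0.73 and an adjusted p of 0.0685. PFHxA exceeded PFNA by 1.23 at 20 µM and 1.51 at 200 µM (adjusted p 0.00196 and 5.27e-05, 2.19 and 6.33% of probes). At 600 µM the shorter PFBA exceeded PFHxA by 0.61 ± 0.15 (SE, adjusted p 0.00551, 10.9% of probes), which did not pass with total counts (0.49, adjusted p 0.0543).

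Carboxylic and sulfonic acids of the same carbon number differed at some concentrations. PFOA was below PFOS at 4 µM, by -0.45 ± 0.14, and above it at 40 µM, by 0.36 ± 0.13 (SE, adjusted p 0.0222 and 0.0256, 12.7 and 35.6% of probes). Neither passed with total counts (adjusted p 0.199 and 0.113), the difference at 4 µM did not without PFOA replicate 1 or 3 (0.0777 and 0.0505), and that at 40 µM did not without PFOS replicate 1 or 2 or PFOA replicate 3 or 5 (0.0641 to 0.134). At 12 µM the difference was -0.19, with a 95% interval of -0.46 to 0.09. PFHxA exceeded PFHxS by 0.77 ± 0.15 at 200 µM (adjusted p 0.000214, 16.3% of probes), and by 0.31 to 0.40 at 6, 20 and 60 µM, where no difference passed (adjusted p 0.115 to 0.296). PFBA and PFBS were compared at 5 concentrations, the differences were -0.03 to 0.26, their 95% intervals lay within -0.34 to 0.57, and none passed. PFDA and PFOS, which differ in carbon number, were also compared. PFDA was below PFOS at the 4 concentrations that both have, by -0.75, -0.56, -0.90 and -1.28 from 0.4 to 12 µM. The adjusted p were 0.00109, 0.0268, 3.26e-05 and 3.67e-08 (edgeR), where 5.07, 2.23, 12.6 and 13.5% of probes passed. The difference at 1.2 µM did not pass with total counts (0.104), or without PFDA replicate 1 or 2 or PFOS replicate 4 or 5 (0.055 to 0.124).

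For aqp3a the pair that passed was PFHxA against PFDS at 6 µM, with a difference of changes of 0.64 ± 0.19 (SE, adjusted p 0.0201, 11.1% of probes). This pair also compares fish origins, as PFHxA pools came from Ottawa fish and PFDS pools from fish of mixed breeding. It did not pass without PFDS replicate 2 (0.0569), without PFHxA replicate 4 (0.0677) or with total counts (0.0803). The other 31 differences were -0.34 to 0.52, and their 95% intervals lay within -0.74 to 1.00.

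alpi.1, the other intestinal alkaline phosphatase on the panel and the neighbour of alpi.2 in the gene order of RefSeq's GRCz12tu, passed in 1 of 45 contrasts. It fell at 450 µM PFNA by -0.65 on the log2 scale (adjusted p 0.000839, edgeR), where 33.1% of all probes passed. The mean was 44.5 ± 7.9 CPM, against 69.6 ± 12.7 CPM in DMSO pools (SD, n = 4 and n = 16). The log2 ratio of alpi.2 to alpi.1 is given as a description, for contrasts chosen because alpi.2 passed there. It was above that of DMSO pools by 1.02 to 1.23 at the 4 lower PFOS concentrations. At 20, 40 and 200 µM PFNA the ratio differed from that of DMSO pools by -0.71, -0.65 and -0.54. At 450 µM PFNA, where both genes fell, the ratio was -0.30 ± 0.21, against 0.03 ± 0.41 in DMSO pools (SD), a difference of -0.33. Whether reads of these related genes are shared between their probes was not tested.

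The brush border list holds 16 genes on the panel, of which 15 were tested. In the 10 contrasts where alpi.2 rose, 3 of 140 tests of the other members were higher and 2 lower, where 1.02 to 6.23% of all probes passed. In the 4 where alpi.2 fell, 2 of 56 were higher and 5 lower, where 1.23 to 33.1% of all probes passed. At 450 µM PFNA 1 of the 14 other members rose and 3 fell, where 16.2% of all probes were higher and 16.9% lower. The falls included slc2a2, a glucose transporter, by -1.05 ± 0.16 (SE, adjusted p 2.15e-06), and ggt1a, a gamma-glutamyltransferase, rose by 1.54 (adjusted p 7.95e-06). The median change of the list, with alpi.2 in it, was -0.10, beside -0.09 over all probes.

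At the highest concentration of PFHxA, PFHxS, PFOS and PFOA, where alpi.2 was not called, some other brush border genes were, and at that of PFBA, PFBS, PFDA and PFDS none of the 15 was. At 400 µM PFHxS 4 of 15 fell, 26.7% beside 21% of all probes, among them slc6a19b by -0.46, anpepb by -0.64 and cel.2 by -1.03. At 600 µM PFHxA 5 of 15 fell and none rose, where 9.5% of all probes were lower and 10.8% higher, with a list median of -0.32 and a median of -0.04 over all probes. They included the neutral amino acid transporter slc6a19b, with 41.6 ± 3.0 CPM against 96.7 ± 16.3 CPM in DMSO pools (SD, n = 4 and n = 6, change -1.21, adjusted p 1.69e-05), the peptidases ace and anpepb, by -1.01 and -0.64, and the lipase cel.2, which is also a gene of the exocrine pancreas, by -1.36. At 40 µM PFOS 4 of 15 fell and none rose, where 14.3% of all probes were lower and 12.6% higher. These were slc10a2, the bile acid carrier of the ileum, by -1.34, anpepb by -0.58, ush1c, a scaffold protein of microvilli, by -1.17, and cel.2 by -0.67. At 400 µM PFOA 1 of 15 passed, where 1.28% of all probes were higher and 1.25% lower. It was anpepb, which rose to 3122 ± 596 CPM, against 1460 ± 385 CPM in DMSO pools (SD, n = 5 and n = 4, adjusted p 0.00836), and at 6 µM PFDS none did, where 5.87% of all probes were higher and 4.36% lower.

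Of the enterocyte genes of lipid handling, 6 were tested. Of all probes 16.9% were lower at 450 µM PFNA, 14.3% at 40 µM PFOS, 9.5% at 600 µM PFHxA and 4.36% at 6 µM PFDS. The shares that were higher were 16.2, 12.6, 10.8 and 5.87%. cd36, a fatty acid receptor, fell at 450 µM PFNA, 40 µM PFOS, 600 µM PFHxA and 6 µM PFDS, by -1.49, -0.67, -0.41 and -0.63 (adjusted p 5.82e-09, 0.000162, 0.0143 and 0.00725). apoa1a, an apolipoprotein, fell by -1.45 at 40 µM PFOS and -1.37 at 600 µM PFHxA, and rbp2b, a retinol-binding protein, rose by 1.27 at 600 µM PFHxA. At 450 µM PFNA acsl5, an acyl-CoA synthetase, fell by -1.13 and plin2, a lipid droplet protein, rose by 1.25. Among transcription factors of the intestine, hnf4a fell by -0.70, gata6 by -0.47 and hnf1ba by -1.07 at 450 µM PFNA, 3 of 10 tested. At 40 µM PFOS 1 of 9 fell, the bile acid receptor nr1h4, by -1.33, at 600 µM PFHxA foxa1 fell by -1.54, and at 4 µM PFOS cdx1b rose by 0.57 (adjusted p 0.0353).

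Markers of other cell types moved in the same contrasts. Of all probes, 16.2% were higher and 16.9% lower at 450 µM PFNA, and 12.6 and 14.3% at 40 µM PFOS. The shares higher and lower were 10.8 and 9.5% at 600 µM PFHxA, 5.87 and 4.36% at 6 µM PFDS and 1.28 and 1.25% at 400 µM PFOA. Of the skin and ionocyte genes, krt8 and icn fell at 40 µM PFOS, by -2.24 and -1.13, and also at 4 µM, where alpi.2 rose, by -1.42 and -0.64 (2 of 9 tested, where 2.9% of all probes were lower and 1.45% higher). krt8 also fell at 0.4, 1.2 and 12 µM PFOS, by -1.32, -1.22 and -0.999 (adjusted p 0.0137, 0.0241 and 0.0395), and icn at 12 µM, by -0.74. In these contrasts 1.77, 1.92 and 6.23% of all probes passed. The fall of krt8 was largest at 40 µM, where alpi.2 was not called. At 40 µM 3 of 9 fell and 1 rose. At 450 µM PFNA cdh1 rose and cyt1l and krtt1c19e fell, 3 of 9, and at 600 µM PFHxA and 6 µM PFDS 0 of 9 passed. Hormone genes gcga and sst1.1, from a list of goblet and enteroendocrine cells with 6 genes on the panel, rose at 450 µM PFNA, by 1.33 and 0.81. Of 5 tested at 40 µM PFOS 3 rose and 1 fell. Of the liver list 4 of 11 rose and 7 fell at 450 µM PFNA, 3 rose and 1 fell at 600 µM PFHxA, 2 rose and 2 fell at 40 µM PFOS and at 400 µM PFOA, and 1 rose and 1 fell at 6 µM PFDS. Of the exocrine pancreas list 3 of 4 fell at 600 µM PFHxA, among them the amylase amy2a by -1.96, and 2 of 4 fell at 40 µM PFOS. Their part in the levels of alpi.2 and aqp3a was not tested.

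PPAR targets, genes of fatty acid oxidation among them, passed in 11 of 17 tests at 450 µM PFNA, 10 of them higher, where 16.2% of all probes were higher, with cpt1ab up by 1.23 and angptl4 by 1.17. At 40 µM PFOS 5 of 17 rose (12.6% of all probes), at 6 µM PFDS 4 of 17 did (5.87%), and at 600 µM PFHxA 3 of 18 did (10.8%). Of the genes of gut inflammation and Myd88 signalling, myd88, the adaptor of Toll-like receptors, rose by 1.15 and the metalloproteinase mmp9 by 2.54 at 450 µM PFNA, where 4 of 14 rose and 1 fell. At 600 µM PFHxA 3 of 13 rose and 1 fell, at 40 µM PFOS 4 of 13 rose, and at 6 µM PFDS 3 of 11 rose, beside the same shares of all probes. Of the glycerol and triglyceride genes only the lipase lipg was left by the low-count filter, and it rose by 1.76 at 450 µM PFNA and 1.79 at 6 µM PFDS, where aqp3a fell.

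The other 3 aquaporins on the panel passed in 1 or 2 contrasts each. aqp1a.1, a water channel, passed in 1 of 45 contrasts, with a rise of 0.53 at 450 µM PFNA, where aqp3a fell and 33.1% of all probes passed. aqp4, a water channel of glia in mammals, rose by 0.64 at 400 µM PFHxS (21% of all probes). aqp9b, an aquaglyceroporin, rose by 0.54 at 40 µM PFOS (26.9% of all probes). It fell by -0.48 at 600 µM PFHxA, where aqp3a rose and 20.3% of all probes passed.

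The levels of alpi.2 and aqp3a were also set against each other. Over the 214 pools, each centred on the pools that share its DMSO group, their log2 levels had a Pearson r of 0.11, and alpi.2 and alpi.1 had 0.21. These pools mix groups and share libraries, so these values are descriptions. In the 16 control_pfna pools r was -0.16 (permutation p = 0.552) and Spearman's rho -0.15 (permutation p = 0.578), r was -0.2 without the 2 pools farthest from the median, and -0.05 with extraction batches centred. In the 6 control_ottawa pools r was -0.44 (exact permutation p = 0.403) and rho -0.66 (0.175), and r was -0.78 without 2 pools. Adjusted over the 4 relations computed, p was 0.86 for both groups. The probes most like alpi.2 over the 214 pools were ascl1b (r = 0.60), eif4ba (0.53), anxa2b (0.51), slc16a10 (0.50) and hnf4a (0.49), and those most like aqp3a were rplp0 (0.68), fzd2 (0.67), nme2b.1 (0.61), nudt9 (0.59) and ran (0.59), among 2076 probes with a mean of 10 CPM or more.

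Neither gene passed between the DMSO groups. Between control_mixed and control_ottawa alpi.2 differed by 0.29 ± 0.21 (SE, adjusted p 0.537, 3.87% of probes) and aqp3a by 0.17 ± 0.16 (adjusted p 0.676). Between control_pfna and control_ottawa, which were processed in different batches, alpi.2 differed by 0.43 (adjusted p 0.0637, 13.9% of probes).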

How the data were processed

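RNA was measured with the TempO-Seq S1500+ zebrafish panel. The authors deposited 1 table of whole-number counts for 3183 probes and 228 libraries, and no normalization was found in it. The tools listed, per the submitters' processing notes, are STAR 2.7.10b, R 4.4.1 and fastp 0.23.2. A genome build is not given in the sources used here. No coordinate or sequence is printed. Library totals were 2254364 to 4466565 counts, and 0 count columns were left unused.

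For each chemical, its 5 concentrations and its DMSO pools were fitted together with edgeR 4.0.16 in R 4.3.3 (limma 3.58.1, filterByExpr, TMM, glmQLFit and glmQLFTest, two-sided, Benjamini-Hochberg adjustment over all probes, threshold 0.05). The standard error is the log2 change divided by the root of F. DESeq2 1.42.0 was an alternative. No label names a DMSO group for PFDA, which was set against control_mixed. Water, reference RNA and the 2 DMSO pools that the labels call outliers stayed out of the comparisons. Over 443 pairs of pools of 1 group the lowest chi-square divided by its degrees of freedom was 6.00, so these pools differed by more than counting error. Whether any were separate libraries of the same RNA was not tested, and pools of different groups were not compared in this way. Nothing says that pools came from separate spawnings, so p-values measure the spread between these pools.

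The 2 genes and the 11 gene lists were chosen with earlier results of these data known. Named genes are, per list, at most 3 called members of smallest adjusted p at the highest concentration of a chemical where alpi.2 or aqp3a was called, any called alkaline phosphatase or aquaporin, and for each gene the 5 probes of highest r; cel.2, anpepb and members named at other concentrations were chosen after their values were seen, and 1 gene that the rule names is not reported here. Alternatives were other scalings, no low-count filter, terms for replicate number, for plate and for extraction batch, each plate alone, other DMSO sets and leaving out each pool. The steps were tested on simulated data.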

Additional observations from a re-analysis of the deposited data

Results flagged for a closer look

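Of 94 groups tested for a pool that stands apart by Dixon's criterion, 7 had one, and chance gives about 1 in 20. For alpi.2 these were replicate 4 at 450 µM PFNA with 52.08 CPM, beside 30.3 to 32.5 CPM in the other 3 pools, replicate 1 at 600 µM PFBS with 61.08 CPM, below the other 3, and replicate 2 at 0.2 µM PFDS with 83.81 CPM, above them. Without the PFNA pool the fall at 450 µM was -1.20, and without the PFBS pool the rise at 600 µM was 0.63 with an adjusted p of 0.0267. For aqp3a they were replicate 1 at 250 µM PFBA with 538.4 CPM, replicate 3 at 0.2 µM PFDS with 517.5 CPM, replicate 4 at 200 µM PFHxS with 479.2 CPM and replicate 1 at 4 µM PFOA with 536.1 CPM, each above the other 3 pools of its group. None of these 4 groups passed for aqp3a.

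The 2 DMSO pools that the labels exclude, used in no comparison, had 107.2 and 76.13 CPM of alpi.2, both above the 47.3 to 64.3 CPM of the control_ottawa pools.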

How the results depend on the processing

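Of the alternatives that left no pool out, for changes at the highest concentrations, joint tests, slopes and counts, 542 kept the direction and side of the threshold (counts within 1.5 times), 23 lost a call, 15 gained one, 25 turned direction and 9 moved a value, and the cause was not tested. For the other called contrasts and pairs, 185 kept their call and 40 lost it. The counts for the highest concentrations include each set against the lowest of its chemical, without DMSO pools, which is a different contrast. Plate 1 holds 1 control_mixed pool, so values on plate 1 for PFOA, PFOS, PFDA and PFDS rest on 1 DMSO pool, assumed to vary like the others. For alpi.2, 600 µM PFBA was 0.61 with a plate term and 0.60 by DESeq2, and 600 µM PFBS 0.53 by DESeq2, all called. At 600 µM PFHxA the change of -0.01 became 0.0014 with DESeq2 size factors, 0.023 with total counts, 0.078 on plate 1, 0.15 with an extraction batch term, 0.013 in a fit of that group and DMSO, and 0.0034 by DESeq2. With both DMSO groups of batch A pooled, 400 µM PFHxS was -0.0028, 400 µM PFOA 0.60 and 40 µM PFOS 0.52, the last pair called, and with the set-aside DMSO pools added 400 µM PFHxS was -0.13. Against the lowest concentration, fitted without DMSO pools, 450 µM PFNA was -0.54 and did not pass (adjusted p 0.07, edgeR). The fit with DMSO pools gave this difference an adjusted p of 0.122. Against their lowest concentrations 400 µM PFOA was -0.24 and 40 µM PFOS -0.72.

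For aqp3a, 6 µM PFDS lost its call with total counts (-0.40), with an extraction batch term (-0.32), fitted alone with DMSO (-0.48) and against the lowest concentration (-0.21). On plate 1, against 1 DMSO pool, the change at 6 µM PFDS was -0.55. 600 µM PFHxA lost its call on plate 1 (0.45), with the batch term (0.34) and against the lowest concentration (0.34), and 450 µM PFNA alone with DMSO (-0.36) and against the lowest concentration (-0.25). For PFHxA the fit with the batch term rests on 1 DMSO pool. With the batch term 400 µM PFHxS was -0.19 and 400 µM PFOA 0.014, and on plate 1, against 1 DMSO pool, 40 µM PFOS was -1.08.

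Joint tests of alpi.2 had adjusted p of 0.0117 (PFBS) and 0.0356 (PFDA) by DESeq2, 0.0072 with pooled DMSO (PFDA), 0.1024 (PFHxA), 0.7885 (PFOA) and 0.0715 (PFOS) on plate 1, 0.52 (PFHxA) and 0.0573 (PFOA) on plate 2, 0.1363 with set-aside DMSO pools (PFHxA), 0.0537 against DMSO of the same extraction batch (PFNA), and 0.0541 (PFNA) and 0.0668 (PFOA) with the batch term. Those of aqp3a had 0.0185 (plate term) and 0.0445 (DESeq2) for PFDS and 0.035 (same-batch DMSO) for PFNA. Slopes of alpi.2 were 0.00077 for PFDS on plate 1, 0.0053 with total counts and 0.11 on plate 2 for PFHxS, and for PFOS -0.21 with total counts, -0.18 on plate 1 and -0.36 on plate 2, uncalled. Slopes of aqp3a turned to 0.0039 for PFDA on plate 1, to -0.0013 without a filter, -0.010 with a plate term, -0.18 with the batch term and -0.13 on plate 2 for PFHxS, and to -0.0071 with total counts, -0.00072 with the batch term and -0.065 on plate 2 for PFOA.

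Replicate numbers are shared between groups. In no chemical did all 4 shared numbers correlate above 0.1, and in PFOS 3 of 4 did. At every PFOS concentration numbers 1 to 5 are the pools of extraction batches 10, 2, 4, 6 and 8. Numbers 1 to 4 of control_mixed are in batches 10, 2, 3 and 9, so only part of them match. With the number as a block, 40 µM PFOS passed for aqp3a (-0.43), as did the joint test of aqp3a for PFNA (adjusted p 0.0428) and the slope of alpi.2 for PFNA (-0.23), the aqp3a slope for PFHxS was -0.029, and called contrasts of alpi.2 were 10, without 60 and 200 µM PFHxA (adjusted p 0.0918 and 0.062) and 20 and 40 µM PFNA (0.162 and 0.0782). Counts changed as follows. Contrasts called with the batch term were 7 for alpi.2 (14 without) and 1 for aqp3a (3 without), and joint tests of alpi.2 were 2 (4 without). Slopes of alpi.2 called were 2 with the block and 0 with total counts (1 as reported). Joint tests of aqp3a called were 1 by DESeq2 and 1 with the block (0 as reported), and its pairs were 2 with the block and 0 with total counts (1 as reported). The correlation of both genes in control_pfna was 0.124 with total counts.

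Leaving out 1 pool at a time, alpi.2 changes ran from 0.545 to 0.6545 (600 µM PFBA), 0.4819 to 0.6252 (600 µM PFBS), -0.043 to 0.049 (600 µM PFHxA), 0.3184 to 0.5256 (400 µM PFOA) and 0.252 to 0.4818 (40 µM PFOS). Those of aqp3a ran from -0.539 to -0.3899 (6 µM PFDS), -0.2269 to 0.3328 (400 µM PFHxS), -0.4304 to -0.2749 (450 µM PFNA) and -0.6618 to -0.3178 (40 µM PFOS). Joint adjusted p ran from 0.0447 to 0.2535 (alpi.2, PFBS) and 0.0411 to 0.5969 (aqp3a, PFOS). Slopes ran from -0.0551 to 0.0219 (PFHxS), -0.3152 to -0.1567 (PFNA) and -0.2919 to -0.2039 (PFOS) for alpi.2 and from -0.1376 to 0.0538 (PFHxS) and -0.0102 to 0.0875 (PFOA) for aqp3a. alpi.2 kept its call in every such refit at the 4 lower PFOS concentrations, 12 and 40 µM PFOA, 200 µM PFHxA and 200 and 450 µM PFNA, and in 7 of 10 at 60 µM PFHxA, 11 of 20 at 20 µM PFNA, 18 of 20 at 40 µM PFNA, 7 of 8 at 4 µM PFOA and 8 of 9 at 120 µM PFOA. The spread between pools of 1 group (SD of 0.26 and 0.22 on the log2 scale for alpi.2 and aqp3a) was larger than the counting error (0.097 and 0.038). With 4 or 5 pools per exposed group, what limited the tests was not itself tested.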
